A study of Homo sapiens with 6 samples.

Results

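The E2F and retinoblastoma family comprised 10 genes out of 26255 with a deposited value: E2F1 to E2F8 and the pocket protein genes RB1 and RBL1. They were chosen by gene symbol and all 10 were found. RNA-seq was performed on 22RV1 cells, an established castration-resistant prostate cancer line, cultured in serum-containing full medium and treated for 24 h with DMSO as vehicle (3 samples) or with 10 nM bruceantin (BCT, 3 samples). All samples come from this line and received no other agent, and the labels do not say whether replicates were separate cultures, so p-values measure only the spread between these samples. The comparison asks which genes BCT changes in these cells.

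E2F transcription factors bind a short GC-rich element in the promoters of genes needed to enter and complete S phase. E2F1, E2F2 and E2F3 are the activators. E2F4 and E2F5 mainly repress together with pocket proteins, E2F6 represses without them through a Polycomb complex, and E2F7 and E2F8 are atypical repressors that bind DNA without a DP partner. The pocket proteins RB1 and RBL1 (p107) hold E2Fs in check until cyclin-dependent kinases phosphorylate them. Several members are themselves E2F targets and are transcribed around the G1/S transition.

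Values are FPKM, that is fragments scaled to transcript length and to the mapped reads of a sample, and can be compared between genes because of the scaling to length. They are not counts, and how many reads stand behind a value is unknown. The most common ratio among low values put the depth of the samples between 0.877 and 1.13 of DMSO replicate 1. The defining luminal markers were present: all 9 genes of that list had a mean of at least 1 FPKM. Of the fibroblast, leukocyte and endothelial lists, COL1A1 and CD68 alone reached a mean of 1 FPKM, and PTPRC and PECAM1 stayed at or under 0.036 FPKM in every sample. COL1A1 was at 1.23 to 1.55 FPKM with DMSO and at 5.04 to 6.31 FPKM with BCT, and CD68 at 2.05 to 3.16 FPKM and 4.95 to 8.16 FPKM, and their part in the results was not tested. BCT replicate 1 stood nearer to the DMSO samples than the other BCT samples, at 40.2 on the first principal component against 65.04 and 63.8, with the DMSO samples between -57.7 and -54.3.

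The element that E2F factors bind was searched in RefSeq promoter windows of build GRCh38.p14, which run from 250 bases before to 50 bases after a start. The letters searched on both strands were TTTGGCGC, TTTCGCGC, TTTCCCGC and TTTGCCGC, which share their TTT start and CGC end. At least one occurred in 1164 of 35116 promoters (3.31%). Promoters of 8 family genes were searched, with a separate entry for each of 2 starts of E2F3. E2F8 had no promoter entry, and E2F5 was left out of the search. The letters were found in 4 of these 9 family promoters, those of E2F1, E2F2, RBL1 and the upstream start of E2F3. The stretch of 30 bases around the matches is shown for each because these 4 genes were all lower with BCT, with the matched letters in capitals and read 5′ to 3′ on the strand of the gene.
E2F1: tttcGCGGCAAAaaggaTTTGGCGCgtaaa
E2F2: gcggcacgacgTTTGGCGCtaaaaaaaaaa
E2F3: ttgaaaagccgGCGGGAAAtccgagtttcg
RBL1: gcagatTTTCGCGCgcTTTGGCGCaggtgg
The stretches lie on the minus strand at chr20:33686393-33686422 (E2F1), on the minus strand at chr1:23531257-23531286 (E2F2), on the plus strand at chr6:20401815-20401844 (E2F3) and on the minus strand at chr20:37096000-37096029 (RBL1). All 4 end before the start, between 3 and 35 bases upstream of it. The matches of E2F1 and RBL1 come in pairs, and one match of E2F1 and the match of E2F3 are on the opposite strand. The windows of E2F4, E2F6, E2F7 and the downstream start of E2F3 did not contain these letters. The RB1 entry also had none, but it stands at an alternative start 172699 bases downstream of the gene's 5′ end, so it does not cover the main RB1 promoter.

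**Figure D1:**
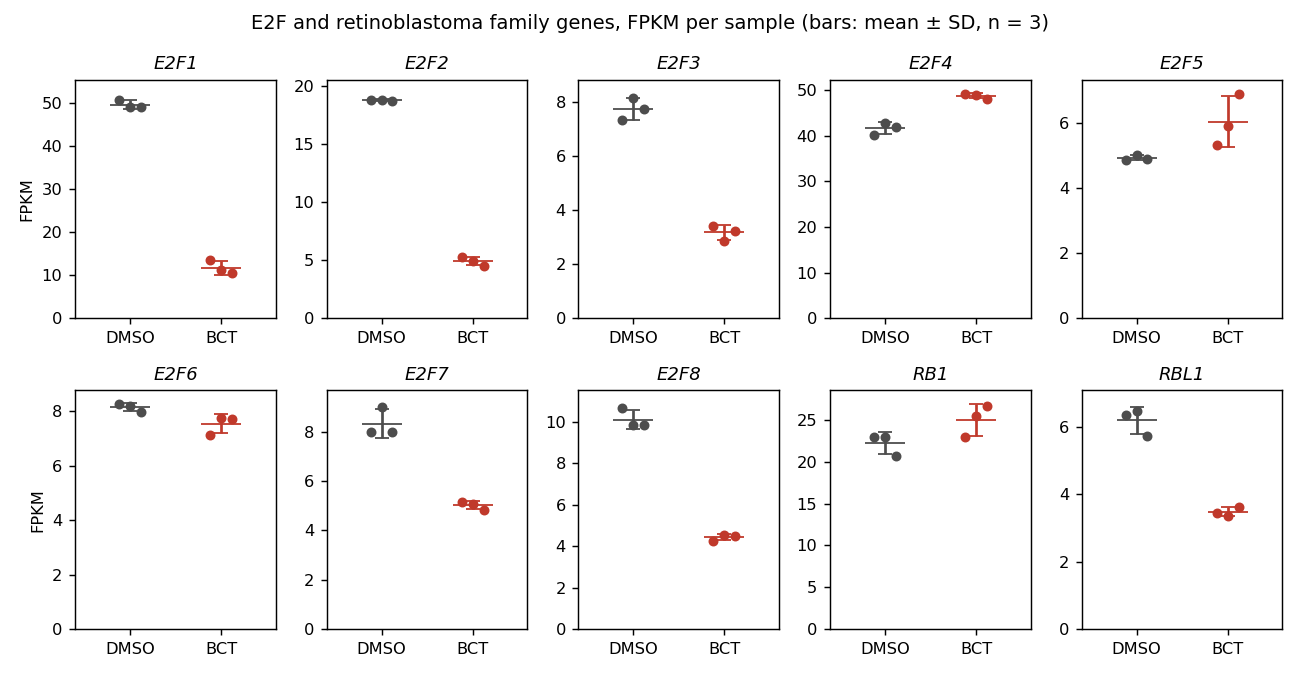
FPKM of each family gene in the 3 DMSO (grey) and 3 BCT (red) samples, with points for samples, wide bars for means and whiskers for ± SD. The BCT points of E2F1, E2F2, E2F3, E2F7, E2F8 and RBL1 lie far below the DMSO points, while those of E2F4 and E2F5 lie above them and those of RB1 overlap.

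Among the activators, E2F1, E2F2 and E2F3 all fell with BCT. E2F1, the activator best known for driving S-phase entry, measured 50.8, 49.2 and 49.1 FPKM in the DMSO samples and 13.6, 11.2 and 10.5 in the BCT samples. It had the highest level of the family with DMSO and kept 23.7% of that mean. The log2 fold change was -2.08 (standard error 0.09, limma adjusted p = 6.4e-07 by the Benjamini-Hochberg method). E2F1 lies on chromosome 20 from 32263292 to 32274210 on the minus strand of hg19.

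E2F2, a close paralog of E2F1 on chromosome 1 from 23832920 to 23857712, measured 18.8, 18.8 and 18.7 FPKM in the DMSO samples and 5.28, 4.96 and 4.53 in the BCT samples. The DMSO samples were nearly equal, and all BCT samples were far below them. The log2 fold change was -1.91 (standard error 0.07, limma adjusted p = 3.3e-07). The same span is given for LOC101928163, which stayed at or under 0.15 FPKM.

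E2F3, an activator with an upstream and an internal start, measured 7.35, 8.14 and 7.75 FPKM in the DMSO samples and 3.43, 2.86 and 3.24 in the BCT samples. Every BCT sample was below every DMSO sample, and E2F3 became the lowest of the family with BCT. Its log2 fold change was -1.26 (standard error 0.09, limma adjusted p = 2.9e-06). It lies on chromosome 6 from 20402137 to 20493945, and a single value per gene does not tell the transcripts of its starts apart. E2F3 lost its call when each sample was rescaled to the same FPKM sum, at -0.51.

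In all, 4 of the 10 members were called lower (E2F1, E2F2, E2F3 and E2F8) and 0 were called higher, where a call needs an FDR below 0.05 and a log2 fold change beyond 0.85 in either direction. Over all 12729 genes tested, which had a mean of at least 1 FPKM, 17.8% were called lower and 13.9% higher. All 10 members passed that filter on low values. The FDR alone was passed by 8 members and by 82.1% of all genes tested. The groups did not overlap in 9 members, against 85.3% of all genes tested. In 7 members every BCT sample was below every DMSO sample (44.3% of all genes tested) and in 2, E2F4 and E2F5, every BCT sample was above (41%). By the FDR alone 6 members were lower (42.8% of all genes tested) and 2 higher (39.3%). Taken over both directions, the FDR and the separation of the groups were therefore near the background. By direction, the members leaned to lower values more than all genes tested did.

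**Figure D2:**
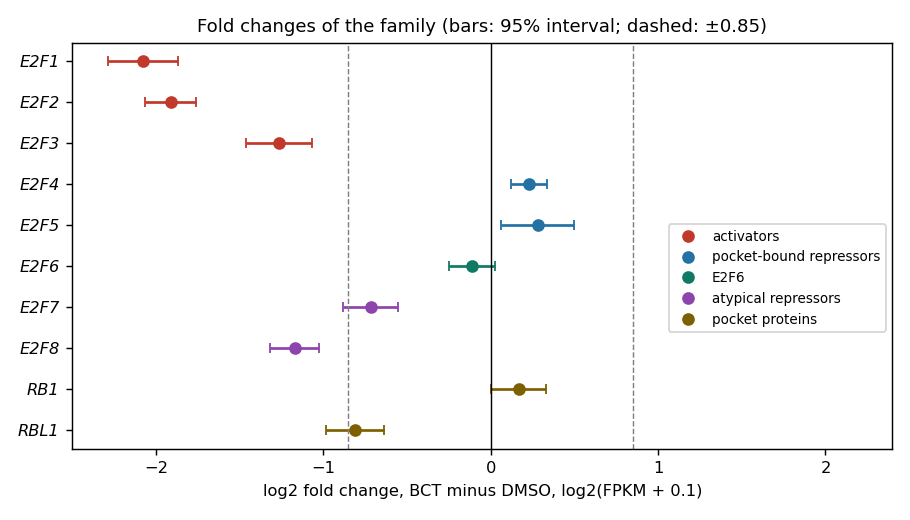
Log2 fold change (BCT minus DMSO, on log2(FPKM + 0.1)) of each family gene with its 95% interval, coloured by role, with dashed lines at the call threshold of 0.85 in either direction. The 3 activators and E2F8 lie beyond the lower line, E2F7 and RBL1 lie between it and 0, and E2F4, E2F5, E2F6 and RB1 lie near 0; E2F6 and E2F7 turn positive when samples are rescaled to equal FPKM sums.

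E2F4 and E2F5, the E2Fs that repress together with pocket proteins in resting cells, were not called. E2F4 measured 40.2, 42.8 and 41.9 FPKM in the DMSO samples and 49.2, 49.0 and 48.1 in the BCT samples. All BCT samples were above all DMSO samples, by a small margin. Its log2 fold change of 0.23 (95% interval 0.12 to 0.34, limma adjusted p = 0.0018) passed the FDR and lay far inside the fold threshold. E2F4 lies on chromosome 16 from 67226068 to 67232821.

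E2F5 measured 4.88, 5.03 and 4.91 FPKM in the DMSO samples and 5.34, 5.93 and 6.89 in the BCT samples, a log2 fold change of 0.28 (95% interval 0.06 to 0.50, limma adjusted p = 0.022). The groups did not overlap, and the BCT samples were more spread than the DMSO samples. E2F5 no longer passed the FDR when any sample other than BCT replicate 1 was left out (limma adjusted p = 0.059 to 0.076), and without BCT replicate 3, its highest sample, the log2 fold change was 0.18. The deposited span of E2F5, chromosome 8 from 86089619 to 86132651, is also given for C8orf59. That gene was at 33.1 to 35.6 FPKM with DMSO and at 51.1 to 52.4 FPKM with BCT, and its part in the E2F5 value was not tested. With samples rescaled to equal FPKM sums, E2F4 (0.995) and E2F5 (1.04) were both called higher.

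E2F6, which represses without pocket proteins, changed least. It measured 8.27, 8.20 and 7.995 FPKM in the DMSO samples and 7.14, 7.77 and 7.71 in the BCT samples. The BCT samples were all below the DMSO samples, yet the log2 fold change of -0.11 (95% interval -0.25 to 0.02, limma adjusted p = 0.11) did not pass the FDR, and it was 0.27 or 0.65 under the scalings to equal sums without and with MIR6087. GENCODE lists 4 pseudogenes named after E2F6, 2 after E2F3 and 1 after E2F4, and how reads shared with them were assigned is not given in the sources used here. E2F6 lies on chromosome 2 from 11584501 to 11606303.

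The atypical repressors E2F7 and E2F8 were both lower with BCT, and of the pair only E2F8 was called. E2F8 measured 10.7, 9.84 and 9.83 FPKM in the DMSO samples and 4.26, 4.54 and 4.495 in the BCT samples. Its log2 fold change was -1.17 (standard error 0.06, limma adjusted p = 1.3e-06). It lost its call under both scalings to equal sums, at -0.79 without MIR6087 and -0.41 with it. E2F8 lies on chromosome 11 from 19245610 to 19263202.

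E2F7, on chromosome 12 from 77415026 to 77459360, measured 7.99, 9.02 and 7.98 FPKM in the DMSO samples and 5.16, 5.08 and 4.83 in the BCT samples. The log2 fold change of -0.72 (95% interval -0.88 to -0.55, limma adjusted p = 2.2e-05) passed the FDR but not the fold threshold, and it was 0.04 after rescaling to equal FPKM sums. Within each sample the ratio of E2F7 to E2F8 does not depend on scaling. It was 0.83 ± 0.08 with DMSO and 1.14 ± 0.07 with BCT (SD, n = 3 each), so that E2F8 exceeded E2F7 in every DMSO sample and E2F7 exceeded E2F8 in every BCT sample. The exact two-sided permutation test of this ratio gave p = 0.1, the smallest that 3 samples against 3 allow.

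The pocket protein genes differed from each other. RB1, the retinoblastoma tumor suppressor, measured 23.0, 23.0 and 20.7 FPKM in the DMSO samples and 22.9, 25.4 and 26.6 in the BCT samples. The lowest BCT sample, replicate 1, lay within the DMSO range, and the log2 fold change of 0.17 (95% interval 0.00 to 0.33, limma adjusted p = 0.058) did not pass the FDR. Without BCT replicate 1 it was 0.23 and passed (limma adjusted p = 0.0086). RB1 was called higher (0.93) when samples were rescaled to equal FPKM sums. Its span on chromosome 13 from 48877883 to 49056026 is also given for LPAR6, a gene inside an RB1 intron, which stayed at or under 0.074 FPKM in every sample.

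RBL1, which encodes p107 and is an E2F target itself, measured 6.36, 6.46 and 5.74 FPKM in the DMSO samples and 3.45, 3.36 and 3.63 in the BCT samples. All BCT samples were below all DMSO samples. The log2 fold change of -0.81 (95% interval -0.98 to -0.64, limma adjusted p = 1.5e-05) fell just short of the fold threshold. Without DMSO replicate 3, the lowest of its group, RBL1 was called at -0.86. RBL1 lies on chromosome 20 from 35624755 to 35724403. The ratio of RBL1 to RB1 within a sample was 0.278 ± 0.003 with DMSO and 0.140 ± 0.009 with BCT (SD, n = 3 each), with no overlap (exact two-sided permutation p = 0.1).

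The 4 genes with matched letters in their promoters, E2F1, E2F2, E2F3 and RBL1, had log2 fold changes of -2.08, -1.91, -1.26 and -0.81. Those of E2F4, E2F6, E2F7 and RB1, whose windows in the table had no match, were 0.23, -0.11, -0.72 and 0.17. The RB1 window does not cover its main promoter, and E2F5 and E2F8 had no searched window. Because the letters were chosen after the values were seen, this split of the members is not a test of the letters. The letters were present in 6.23% of promoters of genes called lower, in 3.92% of those called higher and in 4.86% of those not called, over the 9455 tested genes found by symbol in the promoter table. In the list of 40 E2F targets they were present in 22 of 49 promoters (44.9%). These are matches of letters and not sites of binding, which was not measured.

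With DMSO the order of levels was E2F1, E2F4, RB1, E2F2, E2F8, E2F7, E2F6, E2F3, RBL1 and E2F5, from 49.7 to 4.94 FPKM on average, a 10.1-fold range. The samples of neighbors in that order overlapped for E2F7 against E2F6 and for E2F6 against E2F3, and were apart for the other pairs. With BCT the order was E2F4, RB1, E2F1, E2F6, E2F5, E2F7, E2F2, E2F8, RBL1 and E2F3, from 48.8 to 3.18 FPKM on average. The samples of E2F7, E2F2 and E2F8 overlapped along this order, as did those of RBL1 and E2F3. E2F4 and RB1 thus moved above E2F1, and E2F2 dropped from the fourth place to the seventh.

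The make-up of E2F transcripts differed between the groups, with activators leading in DMSO samples and E2F4 in BCT samples. The FPKM of E2F1 to E2F8 summed to 149.4 ± 1.46 with DMSO and 91.7 ± 1.55 with BCT (SD, n = 3 each). E2F1 made up 34.1%, 32.6% and 33.1% of that sum with DMSO and 14.5%, 12.3% and 11.6% with BCT. E2F4 made up 27.0%, 28.3% and 28.3% with DMSO and 52.7%, 53.6% and 53.3% with BCT. The activators together held 51.0% ± 0.619 with DMSO and 21.6% ± 1.95 with BCT, and E2F4 with E2F5 held 31.2% ± 0.779 and 59.8% ± 1.28 (SD, n = 3 each). E2F7 was the exception, at 5.57% ± 0.344 with DMSO and 5.48% ± 0.116 with BCT, a difference within the spread (exact two-sided permutation p = 0.8). The exact two-sided permutation p was 0.1, the smallest possible here, for the other 7 shares. Shares within a sample do not depend on the scaling of the sample, but they do depend on each other, since all 8 add up to the whole. The share of E2F6 was 5.46% ± 0.081 with DMSO and 8.23% ± 0.507 with BCT, although its own FPKM was slightly lower with BCT.

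**Figure D3:**
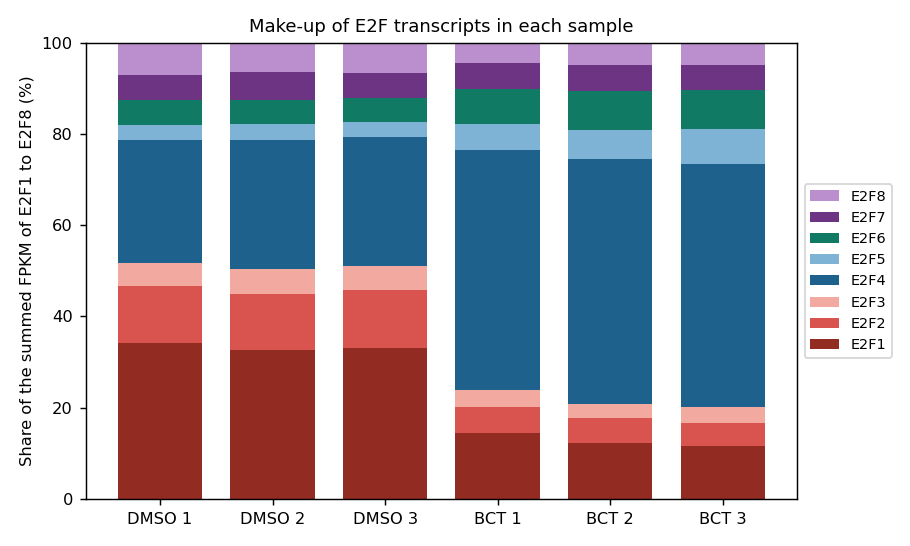
Share of each E2F gene in the summed FPKM of E2F1 to E2F8 (%, stacked to the whole) in each of the 6 samples. E2F1 (dark red) takes 32.6% to 34.1% of a DMSO sample and 11.6% to 14.5% of a BCT sample, while E2F4 (dark blue) goes from 27.0% to 28.3% up to 52.7% to 53.6%.

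The ratio of E2F1 to E2F4 was 1.26, 1.15 and 1.17 in the DMSO samples and 0.276, 0.229 and 0.218 in the BCT samples. The ratio of E2F1 to RB1 went from 2.24 ± 0.116 to 0.476 ± 0.103 (SD, n = 3 each). In both ratios BCT replicate 1 was the BCT sample nearest to DMSO, and it was so for 6 of the 10 members, against 69.1% of all genes tested. Without it the log2 fold change of E2F1 was -2.18.

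The partners of the family were tested next. DP proteins pair with E2F1 to E2F6 to bind DNA. TFDP1, the main DP gene, measured 86.0, 83.2 and 83.4 FPKM in the DMSO samples and 36.0, 31.7 and 33.2 in the BCT samples, a log2 fold change of -1.32 (standard error 0.06, limma adjusted p = 6.4e-07). It lost its call, at -0.55, after rescaling to equal FPKM sums, and GENCODE lists 3 pseudogenes named after it. TFDP2 was at 5.47 ± 0.332 and 4.31 ± 0.026 FPKM (SD, n = 3 each). Its log2 fold change of -0.34 passed the FDR but not the fold threshold, and it was 0.42 or 0.04 under the scalings to equal sums. TFDP3 was listed at 0.019 FPKM in 1 sample and at 0 in the others and was not tested. The ratio of E2F1 to TFDP1 was 0.590 ± 0.002 with DMSO and 0.349 ± 0.031 with BCT (exact two-sided permutation p = 0.1).

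RBL2, which encodes the pocket protein p130 of the DREAM repressor complex in resting cells, measured 33.0, 32.6 and 31.6 FPKM in the DMSO samples and 21.7, 20.03 and 19.8 in the BCT samples. Its log2 fold change of -0.66 passed the FDR but not the fold threshold, and it was 0.11 after rescaling to equal FPKM sums. MYBL2 and FOXM1, which take over the DREAM core later in the cycle to activate late cell cycle genes, both fell, from 48.6 ± 2.26 to 21.4 ± 0.967 and from 75.01 ± 1.37 to 35.1 ± 2.95 FPKM (SD, n = 3 each). Both lost their call under the scalings to equal sums. Of the 21 tested genes of the list for RB and DREAM complexes, 6 were called lower, 3 were called higher and 12 were not called, against 17.8% lower and 13.9% higher over all genes tested, so that the calls to higher values were near the background and those to lower values not far above it. Its median log2 fold change was -0.34, against -0.04 over all genes tested. The histone-binding subunits RBBP4 (-1.45) and RBBP7 (-1.25) fell with TFDP1, MYBL2, FOXM1 and the histone deacetylase HDAC1, whereas the core subunit LIN37 (1.29) and the RB-binding proteins ARID4A (1.24) and ARID4B (0.87) rose. After rescaling to equal FPKM sums, 0 genes of this list were called lower and 7 higher. Of all 12729 genes tested, 668 were then called lower and 5614 higher. ARID4B lost its call without DMSO replicate 3 (0.82), without BCT replicate 2 (0.81) and without BCT replicate 3 (0.82). RBBP4 shares its deposited span with SYNC, at -1.27, and GENCODE lists 7 pseudogenes named after it. RBL2 shares its span with AKTIP, at -0.42, and FOXM1 shares its span with RHNO1, at -0.13.

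Most E2F targets fell with BCT. Of 40 G1/S genes under known E2F control, a list written from general knowledge that holds no member of the family, 34 were called lower and 0 higher, against 17.8% called lower over all genes tested. The median log2 fold change was -1.70, and in all 40 genes every BCT sample was below every DMSO sample, which was so in 44.3% of all genes tested. In bulk RNA, fewer cells in S phase and less of these transcripts per cell cannot be told apart. The largest falls were those of GINS2, a subunit of the replicative helicase (-2.91), UHRF1, which guides maintenance of DNA methylation (-2.60), and CDCA7 (-2.44). GINS2 measured 81.5, 77.2 and 78.8 FPKM in the DMSO samples and 13.4, 9.21 and 9.14 in the BCT samples. UHRF1 went from 30.3 ± 1.36 to 5.004 ± 1.16 FPKM and CDCA7 from 17.2 ± 1.15 to 3.14 ± 0.764 FPKM (SD, n = 3 each). The 6 genes that were not called were POLE, CDC25A, CHEK1, EZH2, DNMT1 and TOPBP1, with log2 fold changes between -0.77 (CHEK1) and -0.33 (DNMT1). After rescaling to equal FPKM sums, 22 genes of the list were called lower and 0 higher, with a median of -0.93 against 0.72 over all genes.

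**Figure D4:**
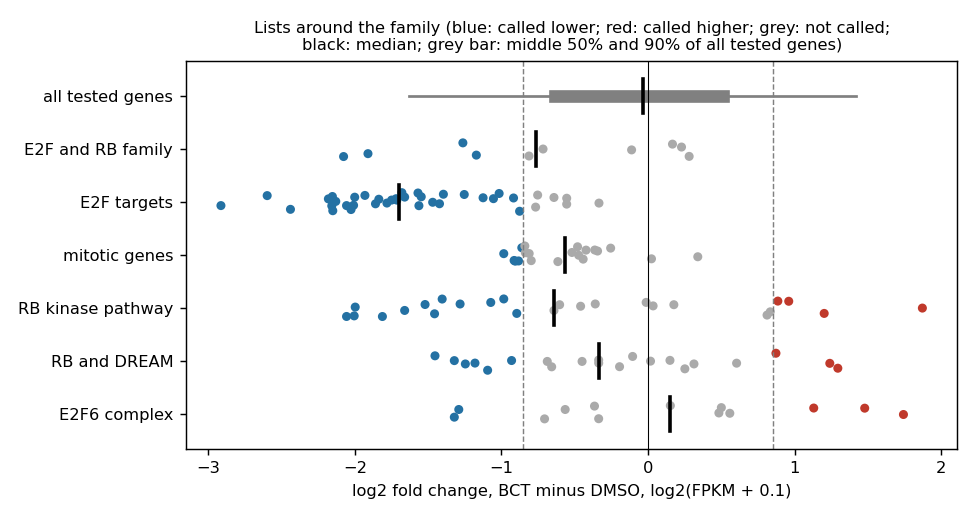
Log2 fold change (BCT minus DMSO) of each tested gene of the family and of 5 lists around it, as points coloured by call with a black bar at the median, above which the grey bar gives the middle of all tested genes. The points of the E2F targets center on -1.70 and those of the mitotic genes on -0.57, while the E2F6 complex has calls on both sides. After rescaling to equal FPKM sums the medians of the mitotic (0.20), RB kinase pathway (0.12) and RB and DREAM (0.43) lists turn positive. They stay below the median of all tested genes, which is then 0.72.

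Mitotic genes, transcribed later in the cycle and largely under DREAM, MYBL2 and FOXM1, were set beside the targets. Of 20, 5 were called lower (AURKB, BUB1B, KIF20A, NUSAP1 and BIRC5) and 0 higher, with a median of -0.57. That count of calls is near the background, since 17.8% of all genes tested were called lower and 13.9% higher. The direction was not, since in 18 of the 20 every BCT sample was below every DMSO sample, against 44.3% of all genes tested. The median over all genes tested was -0.04. BUB1B, a spindle checkpoint kinase that shares its span with PAK6 (9.35 to 14.3 FPKM), went from 44.2 ± 1.49 to 22.3 ± 1.36 FPKM, NUSAP1 from 91.3 ± 2.88 to 48.6 ± 4.996 FPKM and BIRC5, which encodes survivin, from 88.3 ± 5.78 to 47.3 ± 5.71 FPKM (SD, n = 3 each). Many of these genes lay near the fold threshold, so that 8 were called without BCT replicate 1 or without DMSO replicate 1, and 2 without BCT replicate 3, where BIRC5 (-0.82) lost its call. After rescaling to equal FPKM sums 1 gene was called higher and 0 lower, against 5614 and 668 of all 12729 genes tested. The median of the list was then 0.20, against 0.72 over all genes tested.

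More genes of the kinase pathway that acts on pocket proteins were called lower than higher in the values as deposited. After rescaling to equal FPKM sums they were not, and the median over all genes tested was then 0.72. Cyclins D, E and A with CDK4, CDK6 and CDK2 phosphorylate the pocket proteins and free E2Fs, and CDK inhibitors oppose them. Of 25 tested genes, 12 were called lower and 4 higher, with a median of -0.64, against 17.8% lower and 13.9% higher over all genes tested, so that the calls to higher values were near the background. CCNE1, CCNE2 and CDC25A are also in the list of E2F targets, so the lists are not independent. CCNE1, the cyclin E1 gene and an E2F target, measured 4.39, 4.87 and 4.51 FPKM in the DMSO samples and 1.15, 0.842 and 1.11 in the BCT samples, a log2 fold change of -2.06. CDK2, its kinase partner, fell from 128.2 ± 5.06 to 32.1 ± 4.404 FPKM, and the inhibitor CDKN2C (p18) fell from 42.9 ± 4.58 to 10.7 ± 1.48 FPKM (SD, n = 3 each). The inhibitor CDKN1A (p21), a p53 target, measured 49.2, 51.3 and 47.2 FPKM in the DMSO samples and 174.9, 202.2 and 166.0 in the BCT samples, a log2 fold change of 1.87 (standard error 0.08, limma adjusted p = 5.4e-07). CDKN1B (p27) rose from 92.0 ± 5.44 to 178.8 ± 2.83 FPKM and CDKN2B (p15) from 0.979 ± 0.034 to 2.38 ± 0.091 FPKM (SD, n = 3 each). CDKN2B lost its call with a pseudocount of 1 (0.77), and it shares its span with CDKN2B-AS1, at 1.03 to 1.33 FPKM with DMSO and 0.64 to 0.747 FPKM with BCT. The fourth call to higher values was CDK7, a kinase that activates other CDKs. The inhibitors CDKN1C (-1.40) and CDKN2D (-1.28) were called lower like CDKN2C, and CDKN2A (-0.36) was not called. CDK4 (-1.07) and CCND3 (-0.98) were called lower, whereas CCND1 (0.03) and CDK6 (-0.01) were not called. CCND2 stayed under the filter and was not tested. After rescaling to equal FPKM sums 5 genes of the list were called lower and 7 higher. Over all 12729 genes tested the counts under that scaling were 668 lower and 5614 higher.

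A list around E2F6 and PRC1.6, the complex through which E2F6 represses, had calls near the background in both directions. Not all of its genes are subunits of that complex, and TFDP1 and TFDP2 are also in the RB and DREAM list. Of the 13 genes, with the DP genes and EPC1 counted as partners of E2F6, 2 were called lower (TFDP1 and CBX3) and 3 higher (EPC1, RYBP and YAF2). The median was 0.15, and 17.8% were called lower and 13.9% higher over all genes tested. CBX3, a heterochromatin protein, fell from 293.3 ± 15.6 to 119.9 ± 9.64 FPKM (SD, n = 3 each). It lost its call, at -0.52, after rescaling to equal FPKM sums, and GENCODE lists 10 pseudogenes named after it. EPC1 measured 8.78, 8.86 and 8.85 FPKM in the DMSO samples and 24.9, 32.5 and 32.5 in the BCT samples, a log2 fold change of 1.74. RYBP and its paralog YAF2, which bind the RING1 proteins, rose by 1.48 and 1.13 on the log2 scale. After rescaling to equal FPKM sums 0 of these genes were called lower and 7 higher, against 668 and 5614 of all 12729 genes tested.

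The scaling of samples decided several calls in the family. A single gene, MIR6087, took 43.5% to 55.3% of the FPKM sum of a DMSO sample and 31.7% to 32.5% of that of a BCT sample, and rescaling to equal sums moved the median over all genes tested from -0.04 to 0.72 on the log2 scale, or to 0.34 without MIR6087. Relative to that median, E2F1 was at -2.03 after rescaling against -2.04 as deposited, and E2F4 at 0.28 against 0.27. A single factor per sample shifts all genes by nearly the same amount, so this near equality follows from the rescaling itself. E2F1 and E2F2 were called lower under all 5 scalings. With equal sums the members called were 2 lower and 3 higher, against 4 and 0 as deposited, and the genes called over the whole table were 668 lower and 5614 higher, against 2263 and 1764. E2F3 was called under all but equal sums with MIR6087.

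**Figure D5:**
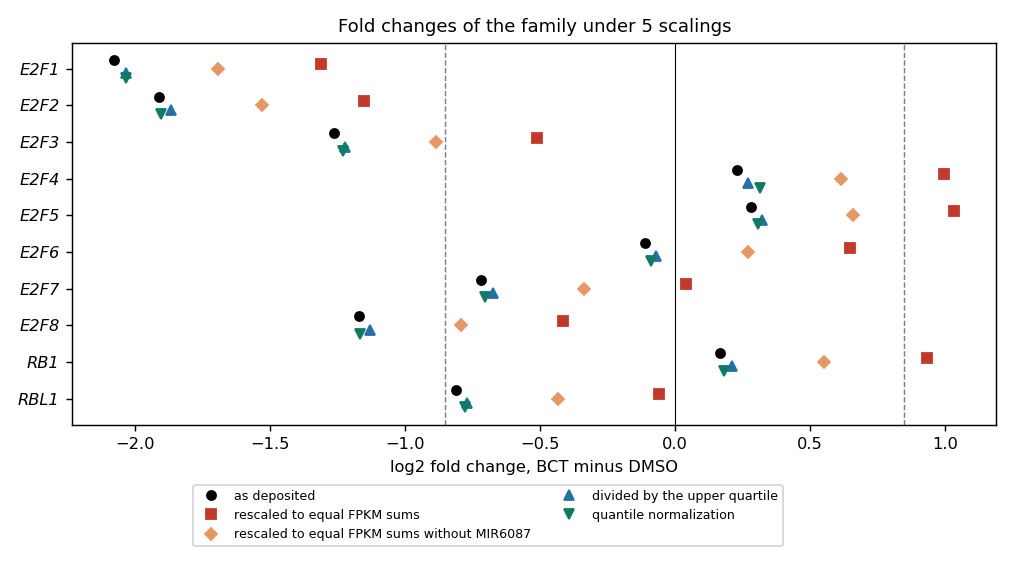
Log2 fold change (BCT minus DMSO) of each family gene under 5 scalings of the samples, with a symbol for each scaling and dashed lines at 0.85 in either direction. E2F1 and E2F2 stay beyond the lower line under all 5, and the scaling to equal FPKM sums (red squares) moves E2F4, E2F5 and RB1 beyond the upper line and E2F6 and E2F7 to positive values.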

How the data were processed

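RNA-seq values of 6 samples were used, 3 with DMSO and 3 with BCT. The authors trimmed reads with Trimmomatic (version 0.38 per the submitters' processing notes) and used HISAT2 for alignment to hg19/GRCh37. The paper names StringTie for assembly, whereas the processing notes name HTSeq, and which tool gave the values cannot be told. FPKM were deposited per gene symbol, 1 library per file. The gene annotation and the gene test are not given in the sources used here. Deposited FPKM were used as they stand. Genes averaging 1 FPKM or more were tested with limma 3.58.1 (R 4.3.3) on log2(FPKM + 0.1), a scale that shrinks changes of low genes. Variances were moderated along the mean, and p-values were adjusted by Benjamini-Hochberg over all genes tested. The thresholds of 0.85 and 0.05 are those of the study's results text. The steps were tested on simulated data. FPKM hold no counts, so no count test was run.

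The members and lists were chosen with earlier results of these data known, and the promoter letters after the values were seen. Named genes are all members, TFDP1, TFDP2, TFDP3, RBL2, MYBL2 and FOXM1, genes sharing a member's span, and up to 3 called genes per list and direction with the largest change and groups that do not overlap; other names were picked with their values known. Positions are hg19 with 1 added to the deposited start, which then equals a GENCODE transcript start for 3 of the 10 members, against 0 without it. The TruSeq RNA v2 kit does not mark strand, so reads of genes on opposite strands of a shared span cannot be told apart. Promoter sequences come from RefSeq, build GRCh38.p14. Alternatives covered the pseudocount (0.01 and 1), the filter (none and 5 FPKM), 4 further scalings, an FDR of 0.01, the variance model, the replicate block and each sample left out.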

Additional observations from a re-analysis of the deposited data

How the results depend on the processing

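E2F1 and E2F2 were called lower under every alternative run, and the number of family members called stayed between 3 and 5. That number adds both directions: 2 were called lower and 3 higher with equal FPKM sums, against 4 and 0 as deposited. Rescaling to equal FPKM sums called 6282 genes in all (668 lower and 5614 higher, against 2263 and 1764 as deposited), 22 E2F targets and 1 mitotic gene. Without MIR6087 that rescaling called 1208 genes lower and 3370 higher, 8 genes of the E2F6 complex list and 0 mitotic genes. Mitotic genes numbered 3 with a pseudocount of 1 or upper-quartile scaling and 2 with quantile normalization, against 5. Rescaling to equal sums reversed E2F6 (0.65), E2F7 (0.040), TFDP2 (0.42) and RBL2 (0.11), and without MIR6087 it reversed E2F6 (0.27) and TFDP2 (0.042). These shifts follow from the median of all genes, which moved to 0.72 and 0.34. Relative to E2F4, the log2 fold change of E2F6 was -0.34, while its share of E2F transcripts was higher.

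With each sample left out, 3834 to 4420 genes were called in all, 4 to 5 members, 33 to 34 E2F targets, 15 to 18 genes of the RB kinase pathway, 8 to 9 of the RB and DREAM list and 2 to 8 mitotic genes. The difference in the share of E2F7 ranged from -0.20 to 0.10 percentage points, and that of E2F1 from -21.3 to -19.9. Same-numbered samples had correlated deviations of 0.033 to 0.116, and samples with unlike numbers -0.115 to 0.074. These small values do not settle whether the numbers pair the samples, which the labels do not say. With the replicate block 4033 genes were called in all and 4 members, and no call on a named gene changed.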
